A study of Schizosaccharomyces pombe with 80 samples.

Results

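The 15 isolates titled seb1-1 epe1KO tfs1DN were each set against the 1 strain they came from, seb1-1 epe1KO, to describe which regions of H3K9me2 they shared with it and which they gained, lost, extended or shrank. They were all the samples carrying that title, 15 of the 80 samples of the series, and 1 whole-cell DNA library (the input) was paired with them. The isolates carried seb1-1, a viable allele of the RNA-binding termination factor Seb1, a deletion of epe1 and the transgene tfs1DN, a catalytically defective form of the elongation factor TFIIS. The parent carried seb1-1 and the epe1 deletion but no tfs1DN. Isolates and parent were Schizosaccharomyces pombe grown at 30 °C, and the mark was immunoprecipitated with an antibody against H3K9me2. The transgene was built in a pDUAL plasmid under the thiamine-repressible nmt1 promoter and, according to the paper, was inserted at the leu1 locus. The paper reports that its epe1 tfs1DN experiments used medium with thiamine, under leaky repression of that promoter. The input bears the title of these isolates, and its strain entry reads N/A. An isolate is a clone picked after transformation and selection, steps the parent did not go through, so tfs1DN, transformation and clonal growth cannot be told apart in any difference from the parent. There was 1 library for each isolate and 1 for the parent, so a difference at a locus has no replicate check, and all isolates share that single reference.

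H3K9me2 is the histone mark of heterochromatin in fission yeast. Clr4, the only H3K9 methyltransferase of this yeast, deposits it, HP1 proteins such as Swi6 bind it, and Clr4 itself binds it, which lets a domain copy itself and spread. Epe1 is a JmjC protein that counters the mark and limits its spread at domain borders. The mark is constitutive over the pericentromeric repeats, the subtelomeres and the silent mating-type region, and facultative islands lie over meiotic genes such as mei4 and ssm4.

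Each deposited list gives peaks with a coverage at least 3-fold above that of their chromosome. Peaks less than 1 kb apart in any of the 16 lists were joined into 75 loci, 52 with a peak in the parent. A locus was called gained in an isolate that had a peak where the parent had none, and lost in the reverse case. A shared locus was called extended or shrunk where the covered length differed by at least 0.5 kb and by at least 25% of the parental length. The lists hold nothing below 3-fold, so a locus without a peak is one under that level and not one without the mark.

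Coverage of the chromosomes averaged 30.9 ± 7.54 in the isolates (SD, n = 15, range 18.8 to 48.9), 24.7 in the parent and 32.0 in the input. Peak coverage times length, summed over the peaks of a chromosome, exceeded chromosome coverage times chromosome length in 15 of 15 isolates and in the parent, but not in the input. The chromosome value is therefore no plain mean, and folds are compared here only as the lists give them. Input peaks covered 116 kb and overlapped 14 of the 75 loci. Across the 15 isolates, coverage did not go detectably with the number of loci (r = 0.0388, permutation p = 0.889, rho = 0.0341, permutation p = 0.905), the covered length (r = 0.127, permutation p = 0.635, rho = 0.189, permutation p = 0.499) or the number of gained loci (r = 0.138, permutation p = 0.623, rho = 0.280, permutation p = 0.312). The Benjamini-Hochberg adjusted p was 0.889 for each r over these 3 relations, and 0.905, 0.749 and 0.749 for the rho values. Without the isolates farthest from the median coverage, 12 and 14, r was 0.277, 0.274 and 0.332.

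These 5 stretches of sequence show what kind of DNA carried the peaks outside constitutive heterochromatin. Each is 200 bases long, is read from the plus strand of the RefSeq assembly ASM294v3, and sits in the middle of the bases that the most isolates covered. Capitals mark TGTA and its reverse complement TACA, searched on both strands, since UGUA is the core of the RNA sequence that Seb1 binds. The first 4 come from gained loci and the last from a locus kept in every isolate.
bbc1 (I:4110111-4110310): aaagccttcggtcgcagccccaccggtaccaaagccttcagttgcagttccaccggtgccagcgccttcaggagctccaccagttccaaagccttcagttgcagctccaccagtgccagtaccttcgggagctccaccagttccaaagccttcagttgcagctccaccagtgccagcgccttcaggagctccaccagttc
sen1 (I:3264908-3265107): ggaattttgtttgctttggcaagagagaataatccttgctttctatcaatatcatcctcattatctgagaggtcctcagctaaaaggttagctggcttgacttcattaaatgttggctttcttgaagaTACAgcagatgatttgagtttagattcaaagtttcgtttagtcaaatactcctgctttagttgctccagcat
avl9 and ddr48 (I:2524063-2524262): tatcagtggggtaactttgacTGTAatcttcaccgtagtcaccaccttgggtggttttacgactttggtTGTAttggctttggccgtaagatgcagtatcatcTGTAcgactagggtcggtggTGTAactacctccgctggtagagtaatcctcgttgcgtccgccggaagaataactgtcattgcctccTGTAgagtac
pfl2 (I:3989030-3989229): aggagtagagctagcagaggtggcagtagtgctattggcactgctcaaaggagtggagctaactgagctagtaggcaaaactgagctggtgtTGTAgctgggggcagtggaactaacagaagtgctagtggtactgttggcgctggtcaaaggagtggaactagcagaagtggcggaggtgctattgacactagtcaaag
mae2 (III:276254-276453): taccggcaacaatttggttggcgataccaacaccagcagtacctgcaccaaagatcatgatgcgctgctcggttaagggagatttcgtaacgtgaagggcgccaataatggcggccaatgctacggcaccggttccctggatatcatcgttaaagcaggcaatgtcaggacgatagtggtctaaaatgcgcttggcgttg
All 5 windows were centred in coding sequence, of bbc1, sen1, ddr48, pfl2 and mae2. The bbc1 and mae2 windows held none of these letters, the sen1 and pfl2 windows 1 match each and the ddr48 window 5, a number that 5.02% of all 62858 windows of that length reached. In the pfl2 locus 53.2% of 31-base words had another copy in the genome, against 4.34% genome-wide.

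The parent had more loci than any isolate. The isolates had 32 to 49 of the 75 loci with a median of 40, against 52 in the parent, while the covered length was 285 to 380 kb with a median of 353 kb in the isolates and 350 kb in the parent. Counted over all isolates and parent loci, 28.6% of the pairs were lost, 11.7% were shrunk and 3.46% were extended, while 15.1% of the pairs of an isolate and a locus without a parent peak were gained. Per isolate, the median was 15 lost loci (range 9 to 21), 7 shrunk (2 to 10), 2 extended (1 to 3), 27 similar (20 to 39) and 3 gained (1 to 9).

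**Figure D1:**
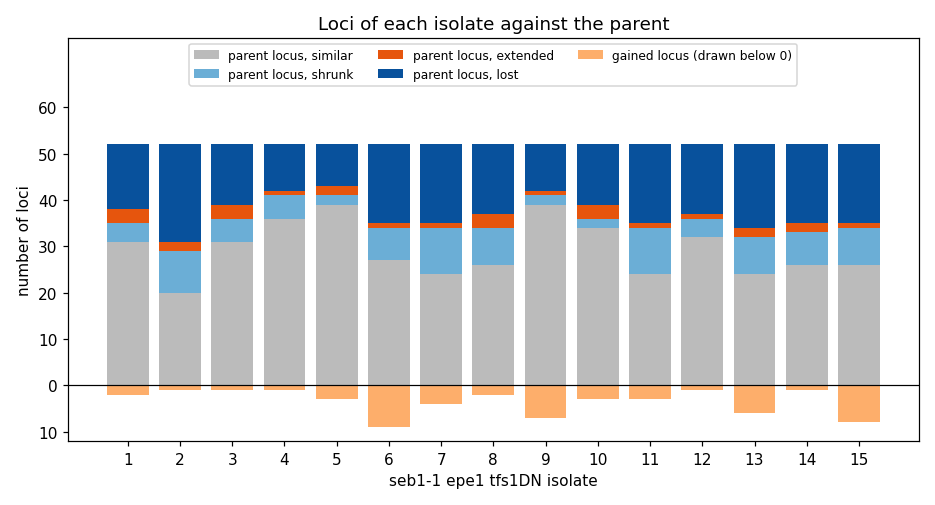
Number of loci in each of the 15 isolates by their status against the parent. Bars above 0 divide the 52 parent loci into similar, shrunk, extended and lost, and bars below 0 count gained loci. Isolate 2 had the most lost loci (21) and isolate 6 the most gained ones (9).

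Kept loci were long and lost loci short. A peak of any length kept a locus, so this rule favours keeping long loci over short ones near the 3-fold limit. Of the 52 parent loci, 27 had a peak in every isolate, with a median parental length of 4.54 kb and a median parental fold of 5.85. The 25 loci that at least 1 isolate had lost had a median length of 0.538 kb and a median fold of 3.23, and the longest was 1.91 kb. The loci kept by all isolates comprised 7 of the 10 at centromeres, 15 of the 32 subtelomeric ones, the mating-type region, and 4 of the 9 elsewhere.

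**Figure D2:**
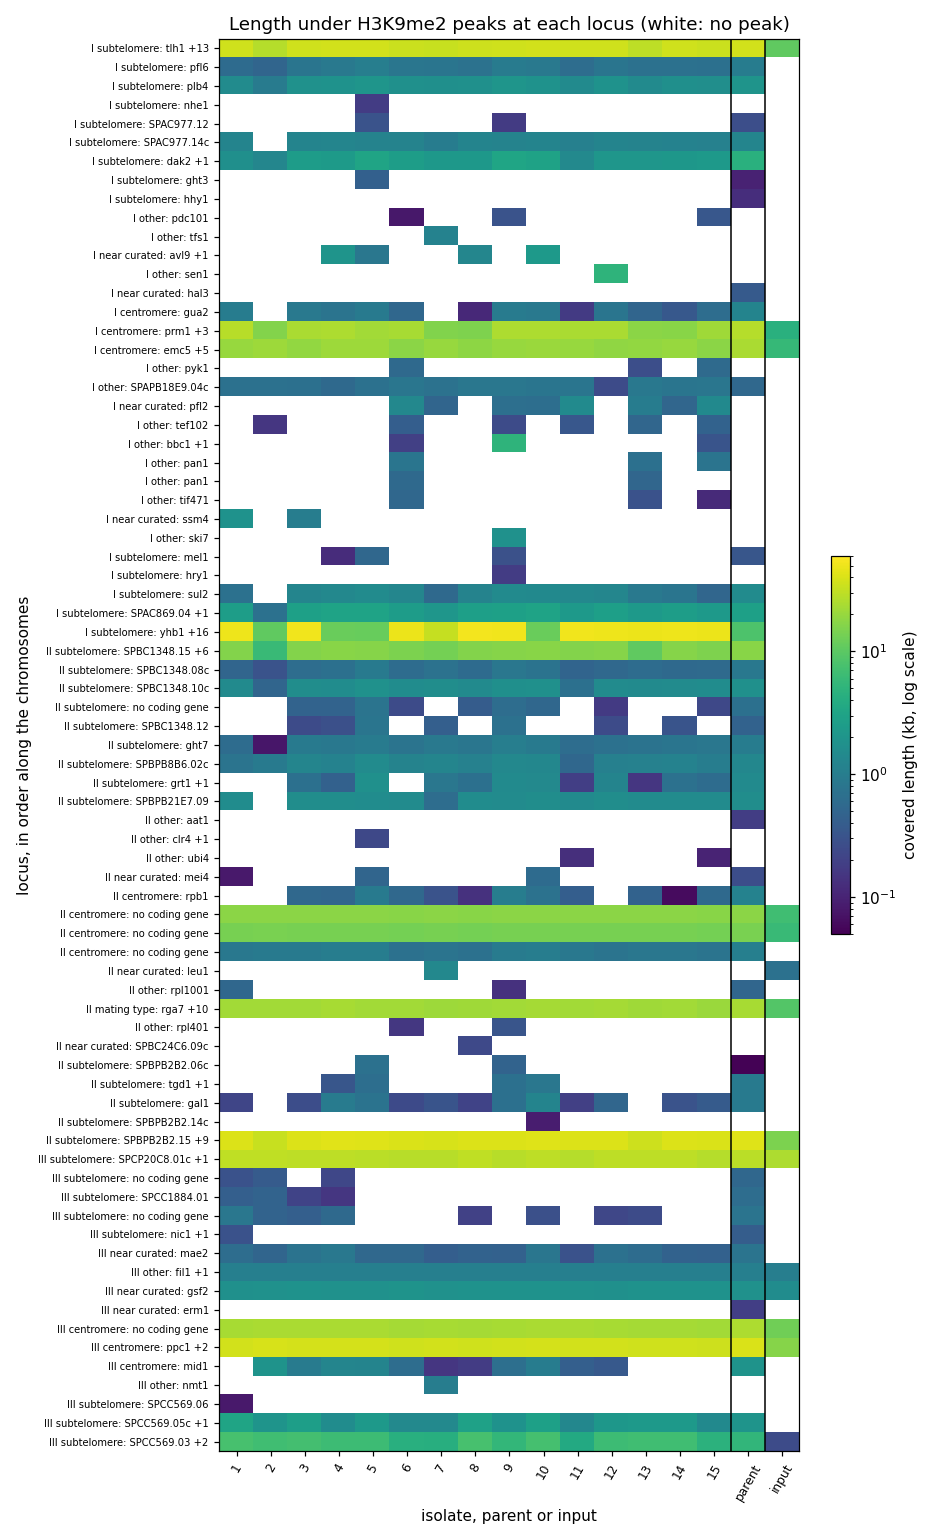
Length under peaks (kb, log colour scale) at the 75 loci, in order along the chromosomes, in the 15 isolates, the parent and the input. White cells have no peak. Long loci at chromosome ends, centromeres and the mating-type region form unbroken rows, and short loci are scattered among isolates.

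The largest difference from the parent lay at the right end of chromosome I. The last locus of that arm, from 5516841 to 5571204, covered 8.37 kb in the parent and was extended in 15 of 15 isolates. It covered 50.3, 10.7, 51.7, 11.9, 11.5, 48.6, 31.8, 52.6, 51.2, 11.9, 51.7, 49.9, 48.3, 50.6 and 49.1 kb in isolates 1 to 15, and the input had no peak there. In total length isolates 2, 4, 5 and 10 were the lowest, isolate 7 lay between, and the other 10 were above 48 kb.

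The change had a common border. Neither an isolate nor the parent had a peak in the 0.338 kb from 5529175 to 5529512, in the space between pfl9, which encodes a cell-surface glycoprotein, and SPAC186.02c. The parental peaks ended before that gap, and the 41.7 kb beyond it, up to 7.93 kb from the end of the chromosome sequence, held 14 protein-coding genes, among them pdc102, annotated as a pyruvate decarboxylase, ftm3 and ftm4. None of the 14 had a parental peak. In isolates 1, 3, 6, 8, 9, 11, 12, 13, 14 and 15 peaks covered between 98.5% and 100% of that stretch, with folds of 10.8 to 17.3. Isolate 7 had 8 peaks over 71.8% of it at a fold of 5.77, and isolate 2 had 13 short peaks over 22.7% at a fold of 3.63. Isolates 4, 5 and 10, like the parent, had no peak past the gap. Before the gap these 3 covered 11.9, 11.5 and 11.9 kb, against 8.37 kb in the parent, at folds of 15.0, 11.5 and 12.9, against 7.73 in the parent. Isolates 2 and 7 covered 1.28 and 1.86 kb before the gap, less than the parent, so their extension call rests on the sequence past it. The other 10 covered 6.83 to 11.0 kb there. Another stretch without a peak in any isolate or the parent, 0.375 kb from 5520570 to 5520944, lay between parental peaks before the gap. A stretch uncovered in every list is thus not by itself a border.

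The sequence past the gap was less repeated than most of the parental heterochromatin, with 29.8% of its 31-base words present elsewhere in the genome, against 70.1% under all parental peaks. The authors' alignment placed a read with several equal matches at 1 of them. Among the other samples, the same locus covered 0 to 2.55 kb in 15 vector isolates with the epe1 deletion alone and 0 kb in their parent. It covered 41.1 and 47.1 kb in the 2 first-batch epe1 tfs1DN isolates, whose parent was not examined here. It covered 12.2 to 42.0 kb in the 11 second-batch ones and 33.3 kb in the parent of that batch, which carried no tfs1DN. In the 12 epe1 ago1 tfs1DN isolates, which lack the Argonaute protein of RNAi, it covered 0 to 3.06 kb. Their parents were not examined here either.

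**Figure D3:**
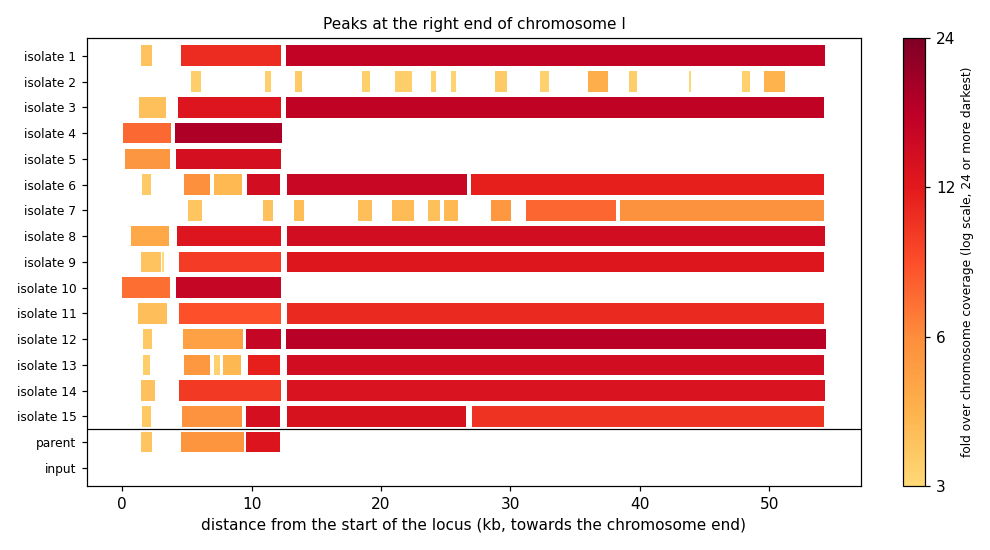
Extent of peaks at the last locus of the right arm of chromosome I, in kb from the start of the locus towards the chromosome end, for 15 isolates, the parent and the input. Colour gives the fold (log scale). In 10 isolates peaks run almost unbroken past the uncovered gap, and isolates 4, 5 and 10 and the parent stop before it.

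The remaining chromosome ends were mostly shorter in the isolates than in the parent. In the outer 100 kb of the left end of chromosome I, which includes the helicase gene tlh1, peaks covered 29.7 to 44.988 kb in the isolates (median 41.3) and 45.8 kb in the parent, above every isolate. At the left end of chromosome II the values were 7.97 to 26.9 kb in the isolates (median 22.6) and 26.0 kb in the parent, which 1 isolate exceeded. At its right end, which includes tlh2, they were 32.7 to 44.8 kb in the isolates (median 41.6) and 44.7 kb in the parent, again exceeded by 1 isolate. Isolate 2 was the lowest at these 3 ends and isolate 13 the second lowest. Input peaks covered 10.5 kb of the left end of chromosome I. On chromosome II they covered 0 kb of the left end and 14.7 kb of the right end.

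Shrunk or lost loci within these ends are named next. Except for ght7, they were picked for that direction and are part of the lengths above. They therefore add no support for it. At dak2, a dihydroxyacetone kinase gene, with its neighbour SPAC977.17, peaks covered 1.30 to 3.26 kb in the isolates (median 2.22) and 4.54 kb in the parent, and the locus was shrunk in 15 of 15 isolates. The pair grt1 and fah1 was shrunk in 8 and lost in 3 isolates, with a median of 0.691 kb in the isolates and 1.501 kb in the parent. The galactokinase gene gal1 was shrunk in 8 and lost in 2, with a median of 0.304 kb in the isolates and 0.902 kb in the parent, while tgd1 and gal10 beside it were lost in 11. The locus of ght7, a hexose transporter gene, was kept in all isolates at 0.816 kb (median), against 0.974 kb in the parent.

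Chromosome III differed. Its right end, in the outer 50 kb, was covered over 5.01 to 10.9 kb in the isolates (median 8.69) and 7.26 kb in the parent, which 11 isolates exceeded. The outermost locus there, over SPCC569.03, SPCC569.02c and SPCC569.01c, was extended in 7 isolates and shrunk in 1, at 3.69 to 7.71 kb in the isolates (median 6.44) and 5.28 kb in the parent. Isolate 11 was the lowest and isolate 1 the highest. At the left end, peaks covered 31.1 kb in the parental list while the input list held 25.036 kb, and the outermost locus had a parental fold of 185, so no difference is read from it.

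Over the 6 ends together, peaks covered 122 to 204 kb in the isolates (median 188) and 168 kb in the parent, a difference of 20.4 kb. Without the last locus of the right end of chromosome I, a setting chosen after seeing the data, the difference turned to −10.1 kb. That locus also set much of the overlap with the parent. The Jaccard index, the bases under peaks of both lists divided by the bases under peaks of either, was 0.721 to 0.923 between isolates and parent (median 0.788). The highest values, 0.923, 0.920 and 0.911, belonged to isolates 4, 5 and 10, and the median was 0.882 without that locus. Among the 105 pairs of isolates the index was 0.684 to 0.963 (median 0.853), and isolate 2 was the most distant from the others (median 0.724).

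**Figure D4:**
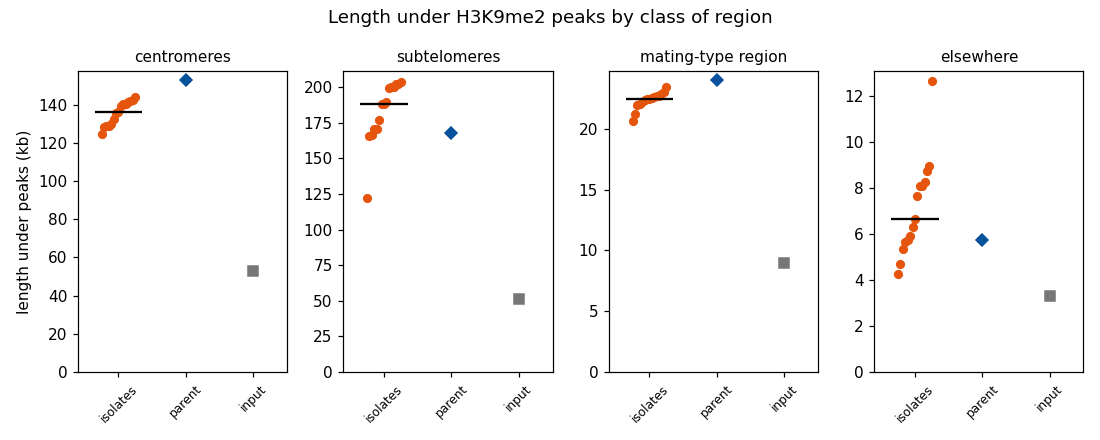
Length under peaks (kb) at centromeres, subtelomeres, the mating-type region and elsewhere. Each orange point is 1 of 15 isolates, the black line is their median, the blue diamond is the single parent and the grey square the input. The parent lies above every isolate at centromeres and the mating-type region.

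Centromeric peaks were shorter than parental ones in every isolate. Within the centromeres and 20 kb on either side, they covered 125 to 144 kb in the isolates (median 136) and 153 kb in the parent, a difference of −16.5 kb. In the mating-type region they covered 20.6 to 23.4 kb in the isolates (median 22.5) and 24.025 kb in the parent. Input peaks covered 52.8 kb of the centromeric windows and 8.96 kb of the mating-type region, and without the peaks that overlap them the differences turned to 1.03 kb at centromeres and 3.29 kb at the mating-type region. That setting removes a whole peak wherever it touches an input peak, so whole domains drop out. It is no correction for input signal. At the 7 centromeric loci kept in every isolate, the median isolate fold was 0.669 to 0.849 of the parental one, and it was below the parent at 7 of 7. Over all 27 loci kept in every isolate it was below at 21, with a median ratio of 0.907.

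The shorter length came from the flanks, where the mark leaves the repeats and enters genes. On the right of centromere I the parental domain ended at 3801228, and the isolates' domains ended 2.80 to 3.27 kb nearer the centromere in 15 of 15. The parental peak covered 100% of cdd1 and 82.5% of azr1 beyond that point, and 0 of 15 isolates had a peak over either gene. The genes nearer the repeats, rad50, which acts in DNA break repair, and sdh1, a succinate dehydrogenase gene, had a peak in 15 of 15 isolates, with median coverages of 93.7% and 82.2%, against 100% of each in the parent. Between them and the repeats, emc5 had a peak in 10 isolates.

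On the left of centromere I the isolates varied more. The joint locus, which includes prm1, lys1, rpl1002 and per1, covered 28.2, 16.2, 24.7, 24.973, 22.4, 23.5, 15.448, 15.3, 24.8, 24.8, 24.3, 24.5, 17.3, 16.8 and 22.1 kb in isolates 1 to 15 and 27.0 kb in the parent. Isolates 2, 7, 8, 13 and 14 were called shrunk, and isolate 1 alone exceeded the parent. In those 5 isolates peaks were missing over rpl1002, a ribosomal protein gene that was covered whole in the parent and had a peak in the other 10. The lysine biosynthesis gene lys1 had a peak in 15 of 15 isolates but was covered whole in 1 of them, and in the parent. Farther out, the gua2 locus was covered over 0 to 0.986 kb in the isolates (median 0.630) and 1.21 kb in the parent.

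**Figure D5:**
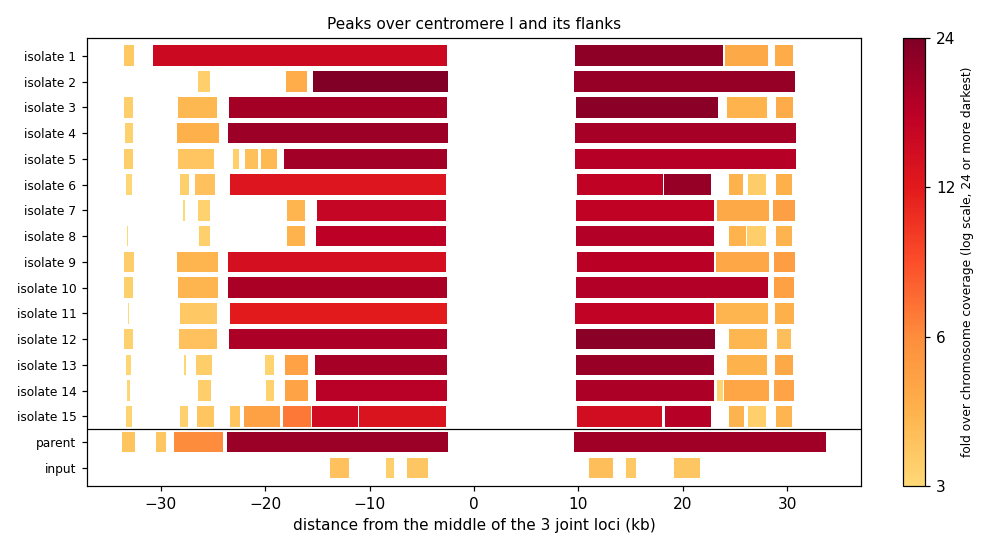
Extent of peaks over centromere I and its flanks, in kb from the middle of the 3 joint loci, for 15 isolates, the parent and the input. Colour gives the fold (log scale). The right edge of every isolate lies inside the parental one, and on the left isolates 2, 7, 8, 13 and 14 have no peak over rpl1002 and short separate peaks on either side of it.

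Centromeres II and III moved less. The outer edges at centromere II lay 0.025 to 0.553 kb inside the parental ones in 15 of 15 isolates on both sides. On the right of centromere III the edge lay 0.126 to 2.00 kb inside (median 1.84), and isolate 2 alone kept a peak over cmc2 and cbp3, which the parent covered to 30.2% and 71.6%. Beyond the edges lie rpb1, which encodes the largest subunit of RNA polymerase II, and mid1, a medial ring protein gene. The rpb1 locus covered 0 to 1.01 kb in the isolates (median 0.463) and 1.16 kb in the parent, with 3 isolates without a peak. The mid1 locus covered 0 to 1.89 kb in the isolates (median 0.433) and 1.91 kb in the parent, with 4 isolates without a peak.

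Outside the constitutive regions 19 loci were gained, 1 to 9 in each isolate, and 14 of them were more than 10 kb from any of 82 sites on a list of heterochromatic regions supplied with the study. Of these 14, 12 were also more than 10 kb from any parent peak. The loci of pdc101 and rpl401 lay 9.11 and 6.88 kb from one. Of the 19, 18 had their window centre in coding sequence, as did 8 of the 9 parent loci outside constitutive regions and 57.0% of all 200-base windows. The median GC content was 47% in the windows of the gained loci, 43% in those of the parent loci and 36% over all windows. The windows of the gained loci held a median of 1 TGTA or TACA, against 2 in those of the parent loci and over all windows. Gained loci were mostly near the 3-fold limit: over all 23 gained loci, subtelomeres included, the highest fold of a locus had a median of 3.14, and 9 reached 1 kb.

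Single isolates held the longest gained loci. The locus of bbc1, an actin-patch gene, and mrp51, a mitochondrial ribosomal protein gene, covered 4.98 kb in isolate 9 at a fold of 5.68, with short peaks of 0.191 kb in isolate 6 and 0.318 kb in isolate 15. The peak at sen1, an RNA helicase gene, covered 4.97 kb in isolate 12 alone at a fold of 4.67. A peak of 1.78 kb at ski7, whose product links the Ski complex and the exosome, was in isolate 9 alone at a fold of 3.55. Within the bounds of the loci, neither sen1 nor ski7 had a peak in any of the 42 other isolate or parent lists examined, whereas bbc1 had one in 11 of them, including the second-batch epe1 parent without tfs1DN. Those 42 lists did not include the first-batch epe1 parent or the epe1 ago1 parents.

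Genes whose sequences the transgene plasmid also carries had a peak in 1 isolate. In isolate 7, peaks covered 1.17 kb at tfs1 (fold 4.90), 1.38 kb at leu1 (fold 5.52) and 1.02 kb upstream of and into nmt1 (fold 4.41), and neither the parent nor another of these isolates had a peak at the 3 loci. The plasmid, inserted at the leu1 locus, carries a form of tfs1, the nmt1 promoter and leu1 sequence. Reads of the transgene and of the native genes therefore cannot be told apart. The input had a peak of 0.709 kb at leu1. Of the 42 other lists, 15 had a peak at leu1, from 3 vector isolates, 11 second-batch epe1 tfs1DN isolates and the parent of that batch. At tfs1, 3 of the 42 had one, and at nmt1, 1, all second-batch isolates.

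Some gained loci recurred. Besides bbc1, the longest gained in more than 1 isolate was over avl9 and ddr48, a stress-induced gene, at 1.98, 0.822, 1.30 and 2.31 kb in isolates 4, 5, 8 and 10, with folds of 3.28 to 3.90. It overlaps a site on the list of heterochromatic regions supplied with the study. Of the 42 other lists 2 had a peak there: a second-batch epe1 tfs1DN isolate (2.30 kb) and the parent of that batch (0.284 kb). The flocculin gene pfl2 had a peak of 0.506 to 1.49 kb in 8 isolates and tef102, an elongation factor gene, one of 0.153 to 0.524 kb in 6. Of the bases of the tef102 locus, 94.1% began a 31-base word that occurs elsewhere in the genome. In 11 second-batch epe1 tfs1DN isolates pfl2 had a peak in 10 and tef102 in 11, and both had one in the parent of that batch. In the 15 vector isolates neither had any.

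Isolates 6, 13 and 15 shared short gained peaks. They had 9, 6 and 8 gained loci outside constitutive regions, of which 5 were common to all 3: pyk1, pfl2, tef102, pan1 and tif471. The peaks at pyk1, the pyruvate kinase gene, were 0.563, 0.275 and 0.579 kb long in isolates 6, 13 and 15. Folds at pyk1, the shared pan1 locus and tif471 were 3.01 to 3.13, near the 3-fold limit. Of 11 second-batch epe1 tfs1DN isolates, 11 had a peak at pyk1, 8 at that pan1 locus and 7 at tif471. The parent of that batch, without tfs1DN, had one at pyk1 and pan1 but not at tif471. The 15 vector isolates had none at these 3 loci. Isolates 6 and 15 shared 7 gained loci, the most of the 105 pairs, and 65 pairs shared none.

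Of the 5113 protein-coding genes of the nuclear chromosomes, 2.68% had a peak in any isolate and 2.03% in the parent. The gene groups below were chosen with earlier results of these data known, so their counts beside these shares test no enrichment. Of 14 genes of the meiotic RNA-elimination list, 3 had a peak in any isolate and 1 in the parent. At ssm4, a dynactin gene for meiotic nuclear movement, peaks of 1.87 and 1.005 kb were in isolates 1 and 3 and none in the parent. At mei4, the meiotic forkhead transcription factor gene, they were 0.082, 0.506 and 0.599 kb long in isolates 1, 5 and 10 and 0.264 kb in the parent. Both genes lie at sites on the list of heterochromatic regions supplied with the study. Both had a peak in 15 of 15 epe1 vector isolates and in the vector parent, strains without tfs1DN. The third, meu6, shared a peak of 0.233 kb with clr4 in isolate 5. Of 9 H3K9 methylation and HP1 genes clr4 was the only one with a peak, and 0 of 9 RNAi genes and 0 of 4 SHREC genes had one in any isolate or the parent. Of 16 elongation, termination and decay genes, tfs1, sen1 and ski7 had one, in 1 isolate each, and none had one in the parent. At tfs1, reads of the native gene and of the transgene cannot be told apart. Of 13 glycolysis genes pyk1 and pdc101 had one in 3 isolates each and none in the parent. Of 8 hexose transporter genes, ght7 had one in 15 isolates and ght3 in 1, and both had one in the parent. The subtelomeric helicase genes tlh1 and tlh2 had one in every isolate, the parent and the input. Of 12 RNA polymerase II genes, rpb1 had one, in 12 isolates and the parent, and of 9 matched cortical actin and eisosome genes, pan1 and bbc1 had one in 3 isolates each and none in the parent.

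Parent peaks that were lost in most isolates were short. Those at hal3, hhy1, aat1 and erm1 had no peak in any isolate and were 0.127 to 0.373 kb long in the parent, with folds of 3.03 to 3.06. Those at nic1 and ght3 were lost in 14 isolates, and those at SPAC977.12, rpl1001 and SPBPB2B2.06c in 13. Of the 31-base words of the SPAC977.12 and rpl1001 loci, 100% and 59.4% had another copy in the genome. Reads there may therefore come from elsewhere. In all, 15 of the 52 parent loci were lost in more than 7 isolates.

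Outside constitutive regions, 4 parent loci were kept in every isolate. The locus at mae2 covered 0.302 to 0.859 kb in the isolates (median 0.550) and 0.768 kb in the parent, at folds of 3.05 to 3.62 in the isolates and 3.60 in the parent. At SPAPB18E9.04c it covered 0.25 to 0.852 kb (median 0.778) in the isolates and 0.553 kb in the parent, and 14 isolates exceeded the parent. The other 2, between fil1 and gir2 and at the flocculin gene gsf2, were also input peaks, of 1.03 and 1.58 kb, and their lengths were 1.056 to 1.073 kb and 1.762 to 1.887 kb in the isolates and 1.059 and 1.825 kb in the parent. Of the 31-base words at SPAPB18E9.04c and gsf2, 71.1% and 69.8% had another copy in the genome. The shares were 10.3% at mae2 and 7.08% between fil1 and gir2.

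Against the 15 epe1 vector isolates, which carry the empty plasmid and no seb1-1 allele and whose loci were built in the same way against their own parent, gained loci made up 8.24 ± 6.11% of the loci of a seb1-1 tfs1DN isolate and 18.5 ± 7.42% of those of a vector isolate (SD, n = 15 each), a difference of −10.3 percentage points (permutation test, two-sided, adjusted p = 0.00129). When peaks up to 5 kb apart were joined, an alternative chosen after seeing the data, the difference was 1.10 points (adjusted p = 0.633). Lost loci made up 28.6 ± 6.496% of the parent loci in the seb1-1 tfs1DN isolates and 22.3 ± 7.65% in the vector isolates, a difference of 6.30 points (permutation test, adjusted p = 0.0354). That difference was 1.55 points without joining (adjusted p = 0.593) and −1.0 at folds of at least 4, and its adjusted p passed 0.05 when any of 7 isolates was left out, with a highest value of 0.0627. The Jaccard index with the own parent was 0.803 ± 0.0644 in the seb1-1 tfs1DN isolates and 0.846 ± 0.0598 in the vector isolates, a difference of −0.0426 (permutation test, adjusted p = 0.0711). Each set has 1 parent, and the sets differ in seb1-1, in tfs1DN and in batch, which cannot be told apart. All 15 values of a set rest on that 1 parent list. The p-values therefore leave out the spread between parent libraries and do not test a genotype difference.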

How the data were processed

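H3K9me2 ChIP-seq libraries and an input were aligned to the ASM294v2 build with Bowtie, reporting 1 random place for reads with several, and smoothed over 1 kb by the authors. Their notes also name SAMtools and bedtools. The peak caller is not given in the sources used here. The deposited lists give each peak's position and its coverage (signal) with that of its chromosome, and the fold is their quotient, at least 3 in every list. RefSeq ASM294v3 supplied genes and sequence. Its nuclear chromosomes carry the lengths of the older build, and no peak passed a chromosome end.

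Peaks less than 1 kb apart were joined into loci. Classes were centromeres with 20 kb on either side, the outer 100 kb of chromosomes I and II and 50 kb of chromosome III, the mating-type region, and elsewhere. Named were gained loci of at least 1 kb or in at least 5 isolates, the lost loci missing from most isolates, the 10 most extended and 10 most shrunk, and retained loci outside constitutive regions. All were chosen with earlier results of these data known. Tests were two-sided permutation tests with 100000 resamples and Benjamini-Hochberg adjustment over 3 (Python 3.11.15, scipy 1.17.1, numpy 2.4.6, pandas 2.3.3; figures with matplotlib 3.10.9), tested on simulated data. The paper calls the isolates independent but does not say how separately they were grown, so p-values measure the spread between these libraries. Alternatives were the joining, a fold of at least 4, a length of at least 1 kb, removal of input peaks, the overlap, the length change and each isolate left out.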

Additional observations from a re-analysis of the deposited data

Results flagged for a closer look

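The difference between isolates and their own parent was not the same in the seb1-1 tfs1DN set and in the epe1 vector set for 2 measures. The share of gained loci differed by −10.3 percentage points, seb1-1 tfs1DN minus vector (permutation test, adjusted p = 0.00129), and the share of lost parent loci by 6.30 points (permutation test, adjusted p = 0.0354). Neither held under every alternative: the first was 1.10 points with peaks up to 5 kb apart joined (adjusted p = 0.633), and the second was 1.55 points without joining (adjusted p = 0.593) and lost its call when any of 7 of the 15 isolates was left out. The isolates numbered 15 per set, and the parent was 1 library in each, so the p-values leave out the spread between parent libraries.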

How the results depend on the processing

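Values below are isolate medians unless named as differences. At folds of at least 4 the gained, lost and shrunk loci were 0, 2 and 1 and the core of parent loci kept by all isolates was 15. With peaks of at least 1 kb the gained, lost, extended and shrunk loci were 1, 5, 1 and 2 and the core 16. Without peaks that overlap input peaks gained loci were 7, the Jaccard index 0.309, and the covered length minus the parent's 1.03 kb at centromeres, 59.0 kb at subtelomeres and 3.29 kb at the mating-type region, since whole domains drop out. With a 50% overlap the core was 16. A 1 kb length change gave 1 extended and 2 shrunk loci, and 25% alone 11 shrunk. Joining at 5 kb, added after seeing the data, gave 8 lost and 4 shrunk. Without the last locus of the right end of chromosome I, also added, extended loci were 1, the Jaccard index 0.882 and the subtelomeric difference −10.1 kb.

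Against the vector set the gained share was 1.10 points with joining at 5 kb and kept its direction and call otherwise. The lost share was 1.55 points without joining, −1.0 at folds of at least 4, 3.14 with peaks of at least 1 kb and 4.11 without input peaks. The Jaccard difference was −0.284 without input peaks (adjusted p = 6e-05) and 0.0248 without the last locus of the right end of chromosome I. With isolates left out in turn, the lost share was 5.46 to 7.11 points (adjusted p = 0.0147 to 0.0627), past the threshold no longer without isolate 2 (5.46), 6, 7, 11, 14 or 15 (6.01 each) or 13 (5.87). The Jaccard difference was −0.0512 to −0.0367, and passed it without isolate 4, 5 or 10. The correlation of coverage with loci ran from −0.181 to 0.340, negative without isolate 2, 9 or 12. At folds of at least 4 the correlations of coverage with loci and gained loci were −0.0819 and −0.0386, and with covered length −0.0325 without the last locus. With isolate numbers as a replicate block the differences were −10.3 (adjusted p = 0.00687), 6.30 (0.00687) and −0.0426 (0.0681), with the same calls. The numbers do not pair the sets: the correlation of deviations exceeded 0.1 in 3 of 15 pairs (median 0.0380), and 0 isolates correlated best with their own number. No list gives values under a fold of 3, which limits losses and short gains most.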
